A study of Mus musculus with 4 samples.

Results

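The 10 core circadian clock genes were followed across 4 arrays of mouse cerebellum, 2 from mice given vehicle and 2 from mice given the neonicotinoid insecticide clothianidin. The members were taken as the probe sets whose platform annotation carries the symbol Arntl, Clock, Per1, Per2, Per3, Cry1, Cry2, Nr1d1, Nr1d2 or Dbp. All 10 were found, each with 1 probe set, among 22206 probe sets, of which 19572 had a gene symbol. The animals of both groups were male C57BL/6N mice aged 10 weeks that performed the rotarod, a test of motor coordination on a turning rod, and were dissected directly afterwards. The clothianidin group received 50 mg per kg per day by mouth for 4 days and the vehicle group received vehicle over the same 4 days. The arrays carry the replicate numbers 7 and 9 for vehicle and 6 and 7 for clothianidin. The time of day at dissection was not given in the sources used here, and nothing beyond separate sample labels says that the arrays came from separate animals, so p-values reflect only how far these samples scatter, which can be technical scatter.

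The mammalian clock is a feedback loop of transcription. CLOCK and BMAL1, the product of Arntl, bind E-box elements and switch on the Per and Cry genes, whose proteins return to the nucleus and repress that activity, and they also switch on Nr1d1, Nr1d2 and Dbp. The nuclear receptors REV-ERB alpha and beta, made from Nr1d1 and Nr1d2, repress Arntl in turn, so that in rhythmic tissues Arntl transcripts peak in antiphase to Nr1d1, Dbp and the Per genes, with Cry1 later than Per and Clock of low amplitude. The cerebellum holds such a clock, which follows the master clock of the suprachiasmatic nucleus and meal times.

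The tissue label was checked with markers. The Purkinje cell gene Car8 lay between 18.19 and 18.45 and the granule cell gene Gabra6 between 17.05 and 17.41 on the log2 scale over the 4 arrays. Olfactory and vomeronasal receptor probe sets, read here as a rough background and chosen for this after the values were seen, had a median of 4.17 and a 95th percentile of 6.01 over 1412 probe sets. A value up to that percentile is called within the receptor background below, and differences between such values are uncertain in size. All 10 clock genes had a mean above that percentile, with Per2 lowest at 7.82. The pineal genes Aanat, Tph1, Crx and Gngt1 lay between 3.11 and 4.52, and the suprachiasmatic genes Vip, Avp, Nms, Prok2 and Six6 between 3.05 and 4.82. The remaining gene of that list, Lhx1, which Purkinje cells also express, lay between 9.29 and 10.23. Pearson's r across probe sets was 0.987 within the vehicle pair, 0.989 within the clothianidin pair and 0.986 to 0.989 for pairs of unlike treatment, a description across genes, which are not independent replicates.

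The elements through which the loops act were looked up in RefSeq promoter windows of assembly GRCm38.p6, each running from 250 bases before to 50 bases after a listed start. Windows were found for 9 of the 10 members, 13 in all, with Per2 the member without one. The E-box CACGTG was in a window of Per1 and Cry1, against 7.15% of all 32851 windows. The E-prime box, CACGTT or its reverse complement AACGTG, was in those of Cry1, Cry2 and Nr1d1, against 4.68% of all windows. The D-box bound by DBP, TTATGTAA or TTACATAA, was present 2 times in the Per3 window, against 0.938% of all windows. AGGTCA or TGACCT, the core site shared by the REV-ERB and ROR receptors, was in a window of Arntl, Clock, Per1 and Nr1d2, against 16.3%. The cAMP response element TGACGTCA was in 0 member windows, against 1.79%. Both strands were searched, and no 2 matches in a member window overlapped. The matches of Arntl, Clock and Per1 each lay in only 1 of their windows, which numbered 2, 3 and 2. The percentages are shares of windows, so they are not a like measure for a count of genes with several windows. A match is a run of letters, not a measured site. The stretches below, 100 bases each and ending before the listed start, are shown because they hold letter matches to elements known in the clock loop. They read 5′ to 3′ on the strand of the gene. Capitals mark 1 kind of element a gene, or both E-box kinds for Cry1, and the TGACCT of Per1 is left in lower case. They are an E-box for Per1, an E-prime box and an E-box for Cry1, an E-prime box for Cry2 and for Nr1d1, a pair of D-boxes for Per3 and the receptor core site for Nr1d2. The Per1 stretch lies at chr11:69098736-69098835 on the plus strand, within the span listed for the gene. On the minus strand, Cry1 lies at chr10:85185072-85185171, Cry2 at chr2:92434183-92434282, Nr1d1 at chr11:98775378-98775477, Per3 at chr4:151044794-151044893 and Nr1d2 at chr14:18239131-18239230.
Per1: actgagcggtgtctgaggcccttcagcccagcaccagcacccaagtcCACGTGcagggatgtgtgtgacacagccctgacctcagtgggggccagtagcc
Cry1: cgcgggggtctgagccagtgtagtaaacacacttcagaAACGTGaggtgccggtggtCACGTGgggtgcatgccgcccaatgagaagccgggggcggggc
Cry2: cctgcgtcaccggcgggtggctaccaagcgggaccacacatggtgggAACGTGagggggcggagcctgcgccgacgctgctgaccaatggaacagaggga
Nr1d1: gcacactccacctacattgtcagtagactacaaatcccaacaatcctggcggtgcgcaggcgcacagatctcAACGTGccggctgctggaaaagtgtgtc
Per3: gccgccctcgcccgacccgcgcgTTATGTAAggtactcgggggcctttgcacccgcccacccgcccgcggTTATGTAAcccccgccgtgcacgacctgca
Nr1d2: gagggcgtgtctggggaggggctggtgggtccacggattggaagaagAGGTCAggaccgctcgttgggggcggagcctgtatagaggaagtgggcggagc

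With clothianidin, 9 of the 10 clock genes had a higher mean and 1, Cry2, a lower one, but no member passed the test. The higher members numbered 8 after a further quantile normalization, where Dbp turned to -0.042, and 6 without vehicle replicate 7, where Clock, Per1 and Per2 were lower. The limma adjusted p was 0.997 for each, and 0 of 10 members were called, as were 0 of 22206 probe sets, or 0%. The largest difference was that of Nr1d1, 1.53-fold. At an unadjusted limma p under 0.05 the count was again 0 of 10 members, where 940 probe sets, or 4.23%, lay under that value. Of all probe sets 48.1% had a difference above 0. The median log2 difference was 0.25 over the 10 members and -0.01 over all probe sets, and its median size without sign was 0.282 for the members and 0.215 for all. The probe sets were not matched to the members for level, and all members lay above the array medians of 6.49 to 6.54. The groups did not overlap for 5 members, Arntl, Per3, Cry1, Nr1d1 and Nr1d2, all higher with clothianidin. Over all probe sets the groups did not overlap for 30.6%, with 15.1% higher and 15.5% lower. Only Nr1d1 was also at least 1.5-fold apart, 1 of 10 members against 7.61% of all probe sets. An exact permutation test of 2 arrays against 2 cannot go below a two-sided p of 0.333.

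**Figure D1:**
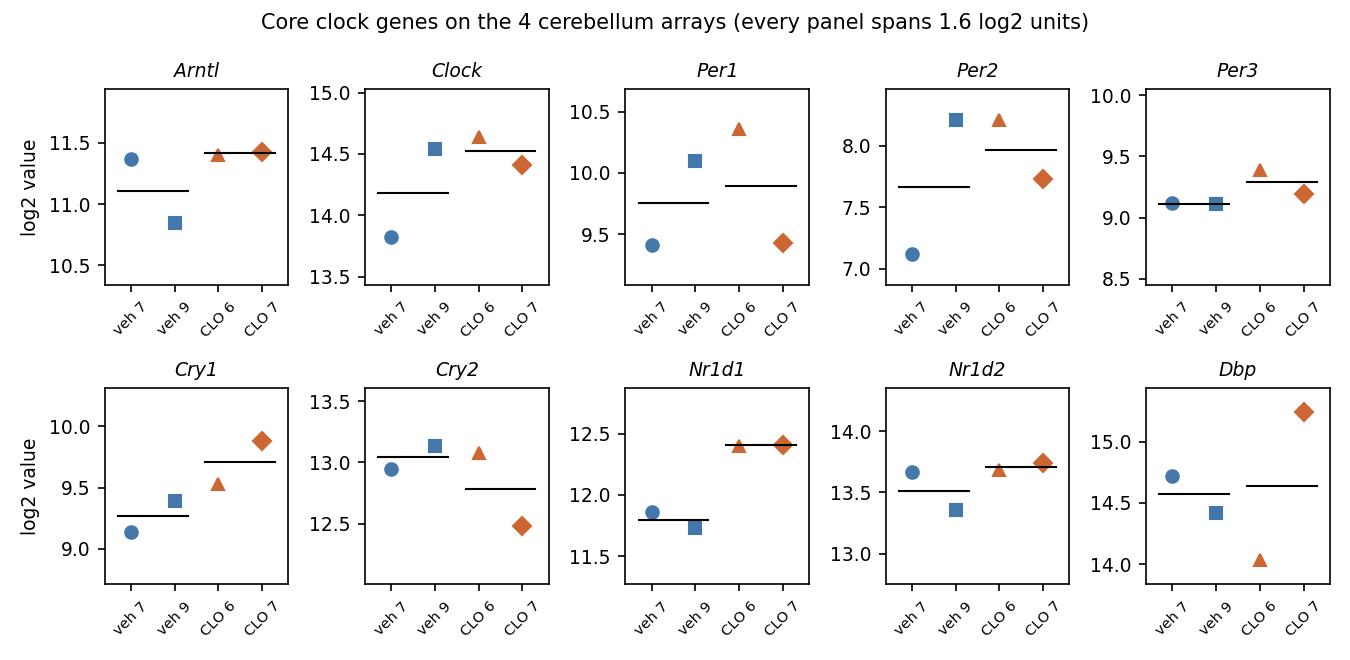
Log2 probe set value (vertical axis) of each of the 10 clock genes on the vehicle arrays (veh, replicates 7 and 9, blue) and clothianidin arrays (CLO, replicates 6 and 7, orange), with black lines at the group means. Nr1d1 is at 11.86 and 11.73 under vehicle and 12.40 and 12.41 under clothianidin, while the clothianidin arrays of Dbp lie on either side of both vehicle arrays, at 14.03 and 15.24.

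In the positive limb, Arntl (probe set TC0700001660.mm.2), which encodes the activator BMAL1, was at 11.37 and 10.85 on vehicle replicates 7 and 9 and at 11.40 and 11.43 on clothianidin replicates 6 and 7. Vehicle replicate 9 was low and the other 3 arrays lay within 0.06 of each other, so the groups were apart by only 0.03. The means were 11.11 ± 0.37 and 11.415 ± 0.02 (SD, n = 2 each), giving a log2 difference of 0.305 (standard error 0.295). Leaving out vehicle replicate 9 gave 0.045 and leaving out vehicle replicate 7 gave 0.565. Clock (TC0500002628.mm.2), which encodes the partner of BMAL1, was at 13.82 and 14.54 under vehicle and at 14.64 and 14.41 under clothianidin. Here vehicle replicate 7 was the low array and the groups overlapped, with a log2 difference of 0.345 and a standard error of 0.326. Without vehicle replicate 7 the difference of Clock turned to -0.015. The low value of each activator thus stood on a different vehicle array.

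Among the repressors of Arntl, Nr1d1 (TC1100003688.mm.2) was at 11.86 and 11.73 under vehicle and at 12.40 and 12.41 under clothianidin. Both clothianidin arrays lay above both vehicle arrays and arrays of a group were close together. The means were 11.795 ± 0.09 and 12.405 ± 0.01 (SD, n = 2 each), giving a log2 difference of 0.61 (standard error 0.267) and a 95% interval from -0.006 to 1.23 in limma. A difference of at least this size, in either direction, was found for 7.95% of all probe sets. It ranged from 0.545 without vehicle replicate 9 to 0.675 without vehicle replicate 7. Nr1d2 (TC1400001499.mm.2) was at 13.67 and 13.36 under vehicle and at 13.68 and 13.74 under clothianidin. Its groups were apart by 0.01, since vehicle replicate 7 sat beside the clothianidin arrays, and the log2 difference was 0.195 with a standard error of 0.276. Without vehicle replicate 9 it was 0.04 and without vehicle replicate 7 it was 0.35.

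Most markers of the main neurons of the tissue had higher means with clothianidin too, and 0 of either list passed limma after adjustment. Of 6 measured Purkinje markers 6 were higher and 5 of them did not overlap between groups, where 15.1% of all probe sets were higher without overlap. Their mean log2 level was 15.95 to 16.06 on the vehicle arrays and 16.33 to 16.49 on the clothianidin arrays. Granule cell markers were higher for 6 of 8, 3 of them without overlap, with mean levels of 15.07 to 15.24 and 15.27 to 15.78, and none of either list was near the receptor background. Oligodendrocyte markers were lower for 7 of 7, 2 of them without overlap, where 15.5% of all probe sets were lower without overlap. The log2 differences ran from -0.73 for Cnp to -0.005 for Mbp, which was thus almost level. Of these markers 0 passed limma after adjustment. Their mean levels were 12.55 to 12.71 with vehicle and 12.21 to 12.34 with clothianidin. Of 4 measured midbrain and forebrain markers, Tcf7l2 was at 11.70 on vehicle replicate 7 and 9.11 to 9.94 on the other arrays. Tbr1 was also highest there, within the receptor background, but Neurod6 and Otx2 were not. The part of these shifts in the values of Nr1d1 and the other clock genes was not tested. In bulk tissue a change in the number of cells of a type and in the RNA per cell cannot be told apart.

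Of the repressor arm, Per1 (TC1100000900.mm.2), whose protein with CRY shuts off CLOCK and BMAL1 and whose transcription also answers acute signals, was at 9.41 and 10.10 under vehicle and at 10.36 and 9.43 under clothianidin. Each group held 1 array near 9.4 and 1 above 10, so the groups covered much the same range. The clothianidin arrays differed by 0.93 and the group means by 0.14, with a standard error of 0.393. The sign turned, to -0.205 without vehicle replicate 7 and to -0.325 without clothianidin replicate 6. Per2 (TC0100002801.mm.2), a partner of CRY like Per1, was at 7.12 and 8.21 under vehicle and at 8.21 and 7.73 under clothianidin. Vehicle replicate 7 was again the lowest array, and vehicle replicate 9 equalled clothianidin replicate 6. The log2 difference of Per2 was 0.305 with a standard error of 0.399, and -0.24 without vehicle replicate 7. Per3 (TC0400004074.mm.2), the member of the family least needed for rhythm, was at 9.12 and 9.11 under vehicle and at 9.39 and 9.19 under clothianidin. It had the smallest range of the 10 members, 0.28, which 90.9% of all probe sets equalled or passed, and a log2 difference of 0.175 (standard error 0.269). That difference was 0.075 without clothianidin replicate 6 and 0.275 without clothianidin replicate 7.

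The cryptochrome genes, which encode the main repressors of CLOCK and BMAL1, had differences of opposite sign. Cry1 (TC1000002605.mm.2) was at 9.14 and 9.39 under vehicle and at 9.53 and 9.88 under clothianidin, with no overlap. Its means were 9.265 ± 0.18 and 9.705 ± 0.25 (SD, n = 2 each), giving a log2 difference of 0.44 (standard error 0.286) and a 95% limma interval from -0.22 to 1.1. Cry1 was at 0.265 without clothianidin replicate 7. Cry2 (TC0200004140.mm.2) was at 12.95 and 13.13 under vehicle and at 13.08 and 12.48 under clothianidin. Only clothianidin replicate 7 was low, and the log2 difference of -0.26 (standard error 0.308) became 0.04 without that array. Clothianidin replicate 7 was thus the highest array for Cry1 and the lowest for Cry2.

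Dbp (TC0700000861.mm.2), the D-box activator that carries the rhythm of the clock to output genes and has among the widest daily swings in mouse tissues, was at 14.72 and 14.42 under vehicle and at 14.03 and 15.24 under clothianidin. The clothianidin arrays were the lowest and the highest of the 4. They differed by 1.21, the widest range of the 10 members, which 9.79% of all probe sets equalled or passed. The group means were 14.57 ± 0.21 and 14.635 ± 0.86 (SD, n = 2 each), giving a log2 difference of 0.065 (standard error 0.41) and a 95% limma interval from -0.88 to 1.01. It was 0.67 without clothianidin replicate 6, -0.54 without clothianidin replicate 7 and -0.085 without vehicle replicate 9. Clothianidin replicate 7 also had a higher mean level over 8 choroid plexus markers, 7.7 there and 5.96 to 6.17 on the other 3 arrays. The thyroid hormone carrier gene Ttr led this, at 13.96 there and 5.67 to 6.38 on the others. Folr1, Kcnj13, Sostdc1 and Kcne2 were also highest there, but Otx2 was lowest, at 7.38. Clic6 and Kl lay inside the range of the other arrays. All values of Kl and Kcne2 were within the receptor background. The part of such tissue in the Dbp value was not tested.

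**Figure D2:**
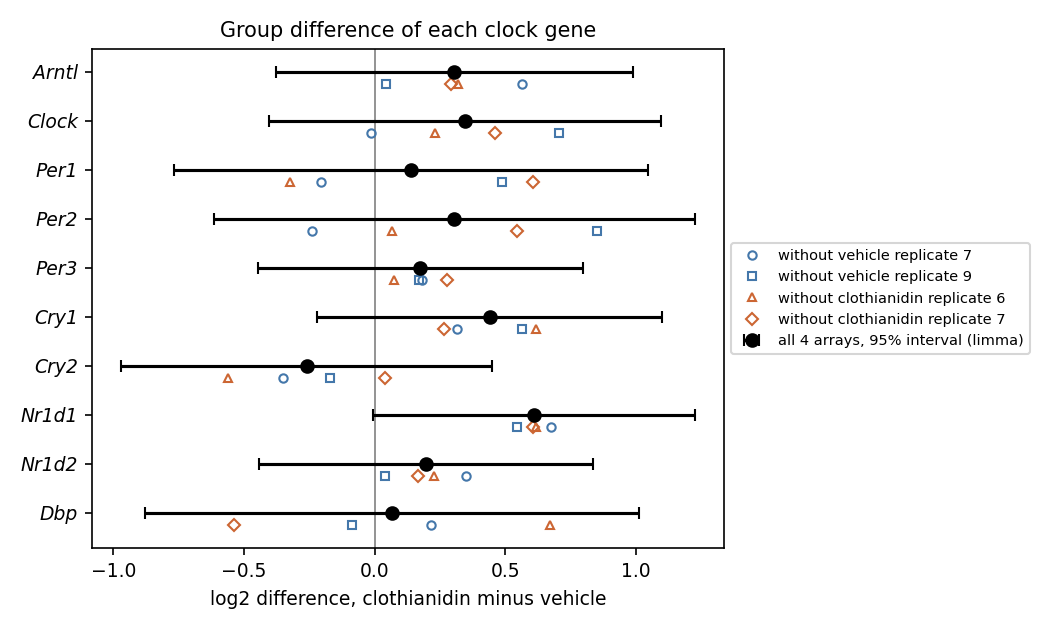
Log2 difference, clothianidin minus vehicle (horizontal axis), for each clock gene, with the limma estimate from all 4 arrays and its 95% interval in black and the value with 1 array left out as open symbols. All 10 intervals include 0, and 5 of the 10 genes change sign when 1 array is left out.

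Spread inside a group was as large as the difference between groups for most members. For 8 of the 10 genes the 2 arrays of at least 1 group lay further apart than the group means did, the exceptions being Nr1d1 and Cry1. The same count was not made over all probe sets, so it cannot be read as particular to the clock genes. The median range over the 4 arrays was 0.71 for the members and 0.64 over all probe sets. Within the members, 5 kept their sign with each array left out in turn, Arntl, Per3, Cry1, Nr1d1 and Nr1d2, and 5 did not. Those that kept it are the members whose groups did not overlap. A gene without overlap must keep its sign when 1 array is left out, so this adds nothing to the lack of overlap.

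Whether the limbs placed the arrays at 1 clock phase was asked with deviations, each gene's value minus its own mean over the 4 arrays, which sum to 0 by construction. Arntl and Clock deviated by a mean of -0.21 and -0.11 on vehicle replicates 7 and 9 and by 0.21 and 0.11 on clothianidin replicates 6 and 7. The 6 day-phase genes, Per1, Per2, Per3, Nr1d1, Nr1d2 and Dbp, deviated by a mean of -0.21 and -0.04 under vehicle, and of 0.15 and 0.10 under clothianidin. Both sets were lower on each vehicle array than on each clothianidin array. The group difference was 0.325 for Arntl and Clock and 0.248 for the day-phase genes, values of mean deviations that get no test. The day-phase value was 0.163 without vehicle replicate 7 and 0.159 after a further quantile normalization.

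The direction of both limbs was then counted between arrays, as a description. In 0 of the 6 pairs of arrays, which share arrays and are not independent, did the mean of Arntl and Clock go one way and the mean of the day-phase genes the other. With Arntl alone as the positive limb the directions were opposite in 2 of 6 pairs, namely the 2 vehicle arrays and the 2 clothianidin arrays. Single genes varied. Arntl went the same way as Nr1d1 in 6 of 6 pairs and as Nr1d2 in 6 of 6, but it was opposite to Per1 in 3 of 6 and to Per2 in 3 of 6. Some of these steps were very small, such as 0.03 for Arntl and 0.01 for Nr1d1 between the clothianidin arrays. Clock was opposite to Dbp in 5 of 6 pairs and to Per1 in 0 of 6. Of the 36 combinations of a pair with a day-phase gene, Arntl was opposite in 9 and the same in 26, with 1 tie, and Clock was opposite in 13 and the same in 22. These counts from 4 arrays do not settle whether the arrays shared a phase.

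**Figure D3:**
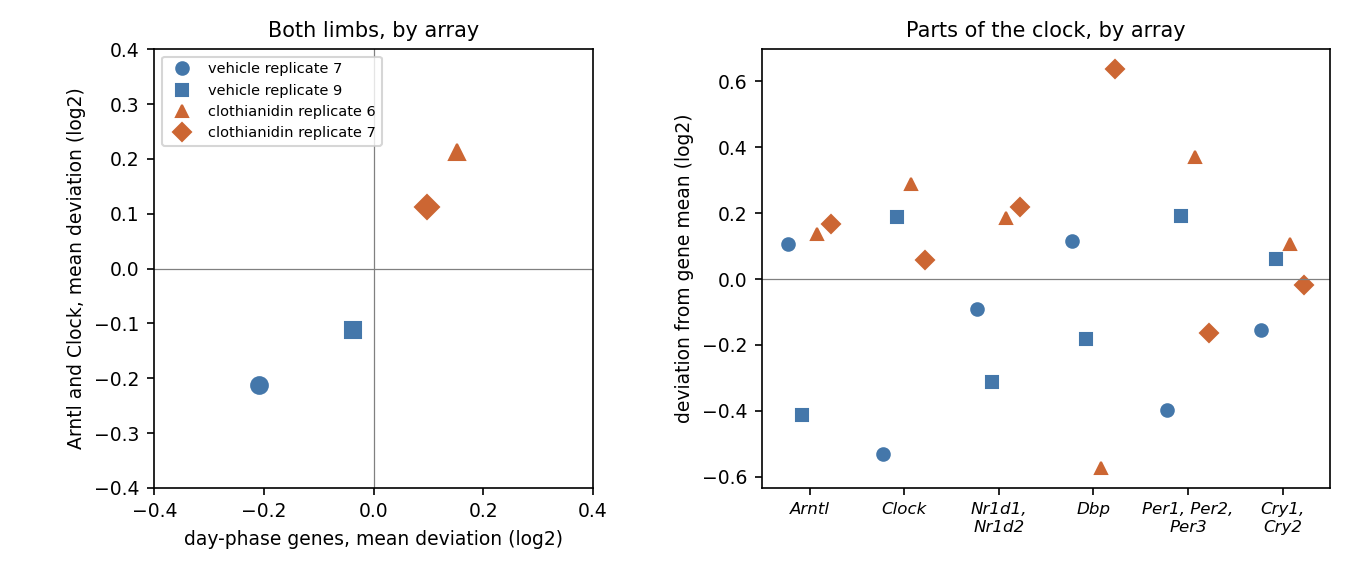
Left, mean deviation from the gene means (log2) of Arntl and Clock (vertical axis) against that of the 6 day-phase genes (horizontal axis), 1 symbol per array; the vehicle arrays have both means below 0 and the clothianidin arrays both above 0. Right, the deviation of each part of the clock on the 4 arrays, where the Per genes are above 0 on vehicle replicate 9 and clothianidin replicate 6 and Dbp is above 0 on vehicle replicate 7 and clothianidin replicate 7.

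Inside the day-phase set the members did not order the arrays in 1 way. The following orders were noticed after the values were seen. Arntl, Nr1d1 and Nr1d2 all ran, from low to high, vehicle 9, vehicle 7, clothianidin 6, clothianidin 7, an order that 3.45% of all probe sets had. Some steps were only 0.01, between the clothianidin arrays for Nr1d1 and from vehicle 7 to clothianidin 6 for Nr1d2. A shared order fixes the direction in each pair, so it repeats the 6 of 6 counts above. Clock and Per1 ran vehicle 7, clothianidin 7, vehicle 9, clothianidin 6, as 3.03% of all probe sets did, and Per2 followed the same order with its top arrays tied. For Per1 the step from vehicle 7 to clothianidin 7 was only 0.02. Dbp ran clothianidin 6, vehicle 9, vehicle 7, clothianidin 7, the order of 3.86% of all probe sets and the reverse of Per1 in which arrays were above the gene mean. The Per genes deviated by a mean of 0.37 on clothianidin replicate 6 and -0.17 on clothianidin replicate 7, where Dbp deviated by -0.57 and 0.64. Between the clothianidin arrays Per1 was thus 0.93 lower and Dbp 1.21 higher on replicate 7, while Nr1d1 differed by 0.01. Between the vehicle arrays Per2 was 1.09 and Per1 0.69 higher on replicate 9, while Arntl was 0.52, Nr1d2 0.31 and Dbp 0.3 lower.

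The profile of the day-phase set was also compared with other genes. By Euclidean distance between deviations over the 4 arrays, the nearest of 9578 named genes at or above the median level were Taf1b, a subunit gene of an RNA polymerase I initiation factor, at 0.037, the lactate dehydrogenase gene Ldhb at 0.043 and Fam170b at 0.044. The members themselves lay between 0.18 for Per3 and 0.972 for Dbp from that mean profile. The nearest genes were picked as the smallest distances of 9578, so they are no like reference for the distances of the members.

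Other genes of the clock were mixed in direction. Of 4 measured other activators and ROR receptor genes, which activate Arntl through that core site, 2 were higher and 2 lower, 0 passed limma, and the median log2 difference was -0.03. Npas2, a paralog of Clock, was at 7.33 and 8.10 under vehicle and 7.30 and 7.59 under clothianidin, a log2 difference of -0.27. It was -0.13 for Arntl2, all of whose values lay within the receptor background, and 0.09 for Rora, a gene highly expressed in Purkinje cells. Of 4 genes grouped here as further E-box repressors, a grouping that these data do not check, 1 was higher and 3 lower. The log2 difference was -0.295 for Timeless, -0.16 for Bhlhe40 and 0.07 for Ciart, whose 4 values ran from 7.76 to 7.97. Ciart, like Nr1d1, is a direct E-box target in background knowledge, and its groups overlapped.

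Among the D-box factors, Hlf, which encodes an activator of the same family as DBP, was at 10.46 and 10.83 under vehicle and at 11.45 and 11.08 under clothianidin. The groups were apart, with a log2 difference of 0.62 and a standard error of 0.295 (limma adjusted p = 0.997). Tef, the remaining member of that family, was at -0.13, with all values within the receptor background, and the D-box repressor gene Nfil3 at 0.065, both with overlap. Hlf was highest on clothianidin replicate 6, the array on which Dbp was lowest.

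Of 8 measured genes for turnover of clock proteins, the kinases and ubiquitin ligase subunits that set the life of PER and CRY, 6 were higher and 2 lower, with a median of 0.16 and 0 passing limma. The log2 difference was -0.42 for Fbxw11, 0.455 for the casein kinase 2 subunit gene Csnk2a1 and 0.32 for the casein kinase 1 gene Csnk1a1. Of 8 clock output genes 4 were higher and 4 lower, with a median of 0.08. They included Fmo2 at -0.59, Leo1 at 0.36 and Usp2, a ubiquitin protease gene with strong rhythm in mouse tissues, at 0.315. Usp2 was at 10.09 and 9.58 under vehicle and 10.07 and 10.23 under clothianidin, so that vehicle replicate 9 was low, as it was for Arntl.

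Signals that can set the clock were read in 3 lists. Of 8 temperature-related genes 4 were higher and 4 lower, with a median of 0.04. Rbm3, a cold-inducible RNA-binding protein gene, was at 13.99 and 14.12 under vehicle and 14.41 and 14.64 under clothianidin, a log2 difference of 0.47, with 0.30 for Cirbp and 0.41 for Hspb1, which was above the receptor background only on clothianidin replicate 7. Of 10 glucocorticoid-inducible genes 4 were higher and 6 lower, with a median of -0.17, including Hif3a at -0.495, with all values within the receptor background, Cdkn1a at -0.445 and Zbtb16 at -0.325.

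Of 9 genes induced through CREB, the factor that also induces Per1, 3 were higher and 6 lower, with a median of -0.57 and 0 passing limma adjusted over all probe sets. Npas4 was at 8.29 and 6.54 under vehicle and at 3.78 and 4.37 under clothianidin. Its clothianidin values lay within the receptor background, so the size of its difference is uncertain. Dusp1 was at 14.92 and 14.92 against 14.09 and 14.02, and Fos at 8.51 and 8.92 against 8.18 and 7.50. These are the 3 of the list with the smallest limma p. Of the 9, 4 were lower without overlap, Btg2 included, where 15.5% of all probe sets were lower without overlap. In the same list Nr4a1, named after its values were seen, was at 7.06 and 7.31 under vehicle and higher, at 8.12 and 7.49, under clothianidin, while Junb, Egr1, Arc and Sik1 overlapped between groups, as Per1 did.

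**Figure D4:**
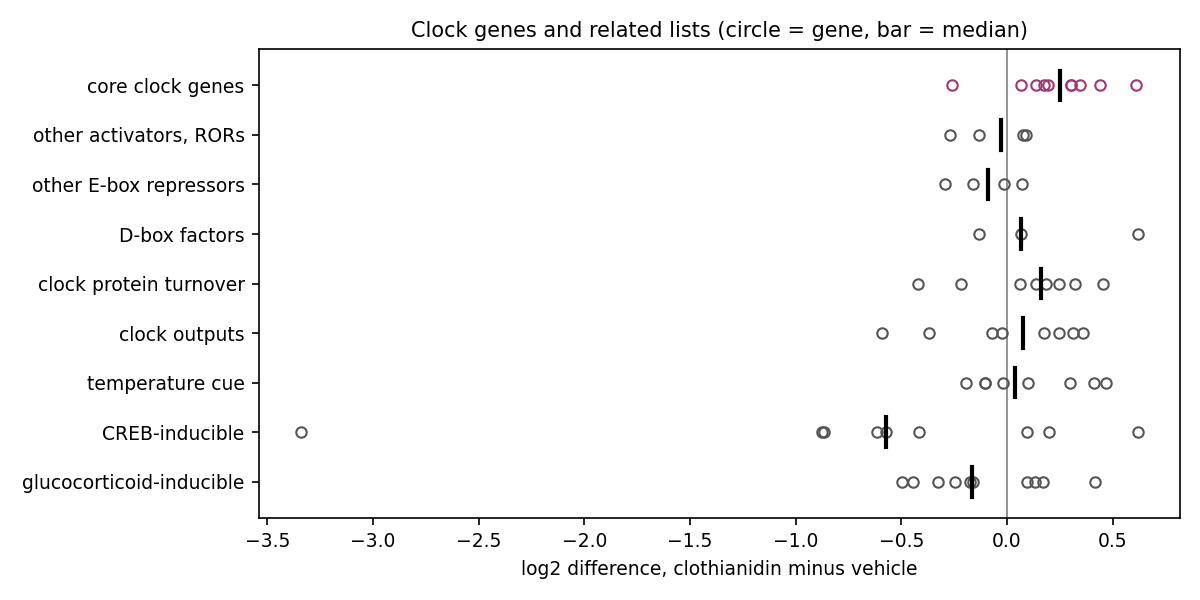
Log2 difference, clothianidin minus vehicle (horizontal axis), of the 10 core clock genes and of 8 related lists, with 1 circle per gene and a bar at the median of each list. The medians are 0.25 for the core clock genes and -0.57 for the CREB-inducible genes, and no gene shown passed limma after adjustment over all probe sets.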

How the data were processed

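Total RNA (250 ng, accepted above an integrity number of 7) was amplified and hybridised to 1 array per sample, per the labels' protocols. What the authors deposited are log2 summaries per probe set, for which the submitters' processing notes name RMA. The log base was not stated and was taken as 2. No version, setting or scan batch is given in the sources used here, and signal over background is unknown. The number of arrays limits the precision. Samples were grouped by title. Symbols came from a platform annotation, and 2634 probe sets were unnamed. limma 3.58.1 in R 4.3.3 (lmFit, eBayes) was fitted to all 22206 probe sets with Benjamini-Hochberg adjustment at 0.05. eBayes estimated a prior SD of 0.306 with 5.96 degrees of freedom beside 2 residual ones. The median standard error was 0.298. The code of the fit was run on data simulated from its own prior, with added changes larger than any member difference. That run does not bear on differences as small as those of the members.

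The members and lists were chosen with earlier results of these data known. Named were all members, up to 3 genes of each related list with the smallest limma p, and the 3 genes nearest in profile. Genes with several probe sets were represented by that with the highest mean. Alternatives were other scalings, filters, priors, no moderation, thresholds, other limb definitions and leaving out each array.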

Additional observations from a re-analysis of the deposited data

How the results depend on the processing

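With 2 arrays a group, 1 array can decide a value. No paired analysis was possible because the groups share only 1 replicate number. Of 80 member differences under other scalings, filters, priors and no moderation, 79 kept their direction and 0 passed the adjusted threshold. The exception was Dbp, at -0.042 after a further quantile normalization. Filters, priors and no moderation leave a group difference as it is, so only the other scalings could have changed a direction. With 1 array left out, a fit that takes a lone array to vary like the other group, 7 of 40 changed sign and 0 passed. The ranges were -0.015 to 0.705 for Clock, -0.325 to 0.605 for Per1, -0.24 to 0.85 for Per2, -0.56 to 0.04 for Cry2 and -0.54 to 0.67 for Dbp. The 0 calls over all probe sets became 8 without moderation, 940 at an unadjusted p under 0.05 and 1689 at 1.5-fold with no overlap, and ran from 0 to 1 with 1 array left out, the 1 call being without clothianidin replicate 6. The group difference of Arntl and Clock was 0.233 after quantile normalization, and its excess over the day-phase genes was 0.025 with medians in place of means, against 0.077, and 0.041 without vehicle replicate 9. The day-phase difference of 0.248 was 0.163 without vehicle replicate 7 and 0.159 after quantile normalization. Both limbs stayed higher with clothianidin under all alternatives tried, including the day-phase set without Dbp (0.285), which was chosen after seeing the data. Leaving out 1 array could not change that direction, because both limb means were lower on each vehicle array than on each clothianidin array. No member had another probe set to try. The cause of these changes was not tested.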
